A study of Mus musculus with 50 samples.

Results

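The genes described here are 10 markers of the oligodendrocyte lineage, from the precursor cell to the start of differentiation: Pdgfra, Cspg4, Olig1, Olig2, Sox10, Nkx2-2, Gpr17, Enpp6, Bcas1 and Myrf. They were taken as a named list and matched by symbol to the GENCODE vM21 annotation, and each symbol belonged to 1 gene. All 10 were among the 16330 protein-coding genes that passed the filter on low counts, out of 55487 genes in the count tables. RNA sequencing was performed on frontal cortex from mice at 5 ages in 2 genotypes, with 5 libraries in each of the 10 groups and 50 libraries in all. The question was how the loss of a copy of Setd1a, which encodes a histone H3 lysine 4 methyltransferase, bears on the cortical transcriptome at each stage. Wild-type mice were compared with Setd1a+/- mice, which carry a heterozygous loss-of-function tm1d allele. The labels give the strain as C57BL/6NTac, whereas the methods of the study describe a mixed C57BL/6NTac and C57BL/6J background and male animals.

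The 5 wild-type and 5 Setd1a+/- groups were sampled at embryonic day 14 (E14), embryonic day 18 (E18), postnatal day 7 (P7), postnatal day 35 (P35) and postnatal day 70 (P70). The labels name the embryonic ages E14 and E18, and the methods place the embryos at the middle of those days. As the dissected tissue, the methods name frontal brain regions for embryos and frontal cortex for postnatal mice. The step from E18 to P7 therefore also crosses this difference in the named tissue, whose part in the changes was not tested. Total counts per library ranged from 35507165 to 43907318. Levels are given as counts per 1000000 (CPM) after scaling between libraries, and n is 5 libraries in every group. A change was called at an adjusted p under 0.05 over all 16330 genes. The p-values of fold changes rest on a spread between the labelled mice within groups. That spread was estimated over all groups of a fit, not only over those compared. A group with a wide spread therefore also bears on the tests of other groups, and each age comes from different mice.

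Oligodendrocyte precursors arise in the ventral and later the dorsal forebrain, spread through the cortex, and divide in response to platelet-derived growth factor. Some then leave the cell cycle, pass through a short-lived committed stage, and become myelinating oligodendrocytes. In mouse cortex most myelin forms after birth. In whole-tissue RNA, fewer cells of a type and less RNA per cell cannot be told apart.

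Some libraries stood apart and bear on the results below. The most marked was wild-type replicate 2 at P7. There the 14 mature myelin genes summed to 1694 CPM, with Mbp the most abundant, against 271 to 333 CPM in the other 9 P7 libraries. The 3 choroid plexus genes (Ttr, Folr1 and Kcne2) summed to 605 CPM in it, nearly all Ttr, against 0.166 to 1.05 CPM in the others. Its 3 hindbrain genes (Hoxb2, Hoxb3 and Hoxa2), which mark tissue caudal to the cortex, summed to 6.01 CPM against 0 to 0.157 CPM, and its 6 neuronal genes to 1688 CPM against 2324 to 2620.3 CPM. At E14, Setd1a+/- replicate 2 had a summed level of 1565 CPM for the 6 fibroblast genes against 11.5 to 523 CPM in the other 9 libraries. Xist, the RNA that coats the inactive X chromosome of female cells, had 60159 counts in wild-type replicate 5 at E14 and 55644 in wild-type replicate 2 at E18, with 0 and 11 counts of 4 Y-linked genes. The other 48 libraries held 1 to 27 Xist counts and 4711 to 9768 Y-linked counts. Values without these libraries are given beside several of the results below.

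RefSeq promoter windows (build GRCm38.p6) were available for 5 members, Pdgfra, Cspg4, Olig2, Nkx2-2 and Enpp6. The windows of 3 of these are shown because their genes took different courses: Pdgfra peaked at P7, Olig2 varied least, and Enpp6 went from near 0 in embryos to its highest level at P35. Each runs 5′ to 3′ on the plus strand and holds the bases before the RefSeq start that lie outside annotated exons, 250 for Pdgfra and Enpp6 and fewer for Olig2. Capitals mark matches, on either strand, to CANNTG, the E-box letters that basic helix-loop-helix factors such as Olig2 can bind, or to AACAAT, letters of the kind bound by Sox factors. The Pdgfra window is chr5:75152001-75152250, the Olig2 window chr16:91225300-91225456 and the Enpp6 window chr8:46986637-46986886.
Pdgfra: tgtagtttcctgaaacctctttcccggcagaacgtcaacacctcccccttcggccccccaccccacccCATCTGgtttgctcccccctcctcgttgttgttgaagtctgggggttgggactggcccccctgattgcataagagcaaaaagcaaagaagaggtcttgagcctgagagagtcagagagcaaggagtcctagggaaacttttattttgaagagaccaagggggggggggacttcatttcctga
Olig2: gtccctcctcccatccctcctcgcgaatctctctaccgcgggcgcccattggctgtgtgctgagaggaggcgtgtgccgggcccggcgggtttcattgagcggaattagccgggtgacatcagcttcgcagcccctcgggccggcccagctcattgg
Enpp6: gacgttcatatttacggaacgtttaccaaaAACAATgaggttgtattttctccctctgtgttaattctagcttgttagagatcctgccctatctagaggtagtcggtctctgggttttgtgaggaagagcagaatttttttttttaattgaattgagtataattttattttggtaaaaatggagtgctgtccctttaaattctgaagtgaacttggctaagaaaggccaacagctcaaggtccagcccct
The Pdgfra window held 1 match to CANNTG, which 66.2% of the 32851 RefSeq windows held when read at 250 bases, and 4 CpG pairs. The Olig2 window held neither CANNTG nor AACAAT, which 50.8% and 6.51% of windows held when read at its length. It was 66.9% G and C, and had 14 CpG pairs, against a median of 3 in windows of that length. The Enpp6 window held 1 match to AACAAT, which 9.42% of windows held when read at 250 bases. Its base composition was 38.4% G and C. A match describes letters in a window and does not locate a bound site.

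Setd1a, the targeted gene, was measured first. Its level at E14 was 129, 129.8, 136, 119 and 119 CPM in wild type and 150.2, 136, 128, 139.7 and 130.1 CPM in Setd1a+/- cortex. At E18 it was 93.4, 95.6, 94.6, 85.4 and 100.02 CPM in wild type and 104, 117, 96.9, 104 and 113 CPM in Setd1a+/-. At P7 it was 72.5, 76.2, 70.2, 70.7 and 71.3 CPM against 81.9, 78.3, 76.4, 83.5 and 83.7 CPM. The Setd1a+/- libraries were all higher at P7, and the genotypes overlapped at E14 and E18. At P35 the values were 91.7, 82.4, 81.7, 84.6 and 85.2 CPM in wild type and 91.9, 88.2, 88.3, 89.4 and 91.6 CPM in Setd1a+/-. At P70 they were 84.4, 88.7, 84.8, 81.6 and 92.0 CPM in wild type and 81.9, 86.0, 81.5, 76.6 and 97.8 CPM in Setd1a+/-. The genotypes overlapped at both of these ages. Tested age by age, the differences were 0.11, 0.19, 0.16, 0.08 and -0.03 log2 units from E14 to P70, none of them called by edgeR. With age as a covariate, Setd1a was 0.10 ± 0.03 log2 units higher in Setd1a+/- cortex (SE, adjusted p = 0.00679), which is 7.45%, and the adjusted p ran from 0.00106 to 0.0181 over the alternatives. The counts cover all exons of the gene, on chromosome 7, and 52.3% of its exonic bases are shared with the annotated genes Gm49388 and 9430064I24Rik. The counts of the whole gene therefore do not check the genotype labels.

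The 10 genes differed widely in level and in the age at which each was highest. Per kilobase of exon, which allows levels to be compared between genes, Olig2 was the most abundant member at E14 with a mean of 12.0 CPM per kilobase (n = 10 libraries of both genotypes), ahead of Olig1 at 6.02, and Enpp6 the least abundant at 0.0028. From E18 on Olig1 led, with 29.7 CPM per kilobase at that age, 71.8 at P7, then 64.9 at P35 and 58.6 at P70. Bcas1 went from 0.312 CPM per kilobase at E14 to 28.6 at P70, second to Olig1. With both genotypes pooled, mean levels were highest at P7 for 6 members (Pdgfra, Cspg4, Olig1, Olig2, Nkx2-2 and Gpr17), at P35 for 2 (Sox10 and Enpp6) and at P70 for 2 (Bcas1 and Myrf). In Setd1a+/- cortex alone, mean CPM was slightly higher at P35 than at P7 for Nkx2-2 (7.61 against 7.505) and Gpr17 (75.9 against 74.6). By mean log2 CPM this held for Gpr17 (6.243 against 6.219) but not for Nkx2-2 (2.910 against 2.915). Neither difference was called by edgeR (adjusted p = 0.923 for Gpr17 and 0.944 for Nkx2-2).

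In wild-type cortex, 7 of the 10 members rose from E14 to E18 and none fell, where 31.8% of all tested genes rose and 34.1% fell. From E18 to P7 all 10 rose, with 33.9% of all genes higher and 33.4% lower. From P7 to P35, 4 rose (Sox10, Enpp6, Bcas1 and Myrf) and 3 fell (Pdgfra, Cspg4 and Olig2), with 32.6% of all genes higher and 34.3% lower. From P35 to P70 no member was called by edgeR, DESeq2 called 0 and limma-voom 1 (Enpp6), and 1.06% of all genes changed. At that step 3 members and 1849 genes in all had an unadjusted p under 0.05. The median log2 fold change of the members over the 4 steps was 1.89, 1.70, -0.20 and -0.23, beside all-gene medians of -0.01, 0.00, -0.01 and 0.00. When wild-type replicate 2 at P7 was left out, 8 members rose from E14 to E18, 10 rose from E18 to P7 (median 1.60), 4 rose and 3 fell from P7 to P35 (median -0.10), and 1 fell from P35 to P70 (Enpp6). The shares of all genes given here are those of the fit with all libraries, so these refitted counts have no share beside them. The member gained from E14 to E18 in that refit was Enpp6, with mean wild-type counts of only 0.8 at E14 and 3.6 at E18. In Setd1a+/- cortex, 7 members rose from E14 to E18 (32.0% of all genes), all 10 from E18 to P7 (32.7%), and 4 rose and 3 fell from P7 to P35 (34.5% and 33.3%). From P35 to P70 none was called by edgeR there, DESeq2 called 0, limma-voom called 1 (Enpp6), and 2.98% of all genes changed. By an unadjusted p under 0.05, 1 member and 2639 genes in all passed there.

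**Figure D1:**
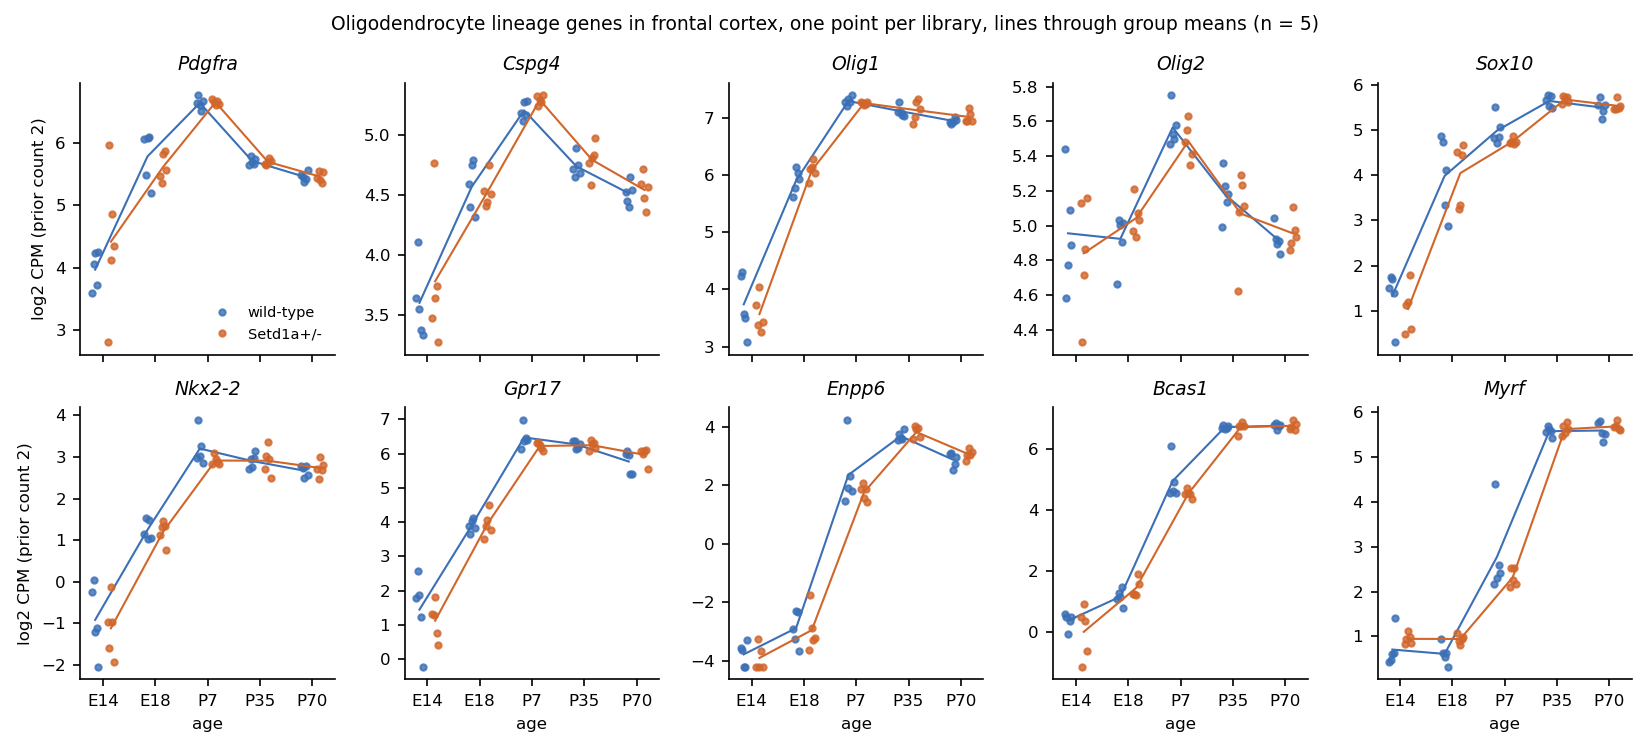
Log2 CPM of each of the 10 members in every library (vertical axis) at the 5 ages (horizontal axis), with lines through the group means of wild-type and Setd1a+/- cortex. Pdgfra and Cspg4 peak at P7, Bcas1 and Myrf reach their plateau at P35, and the wild-type library far above its group at P7 for Enpp6, Myrf and Bcas1 is replicate 2.

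Pdgfra encodes the receptor through which platelet-derived growth factor drives precursor division, and it is also expressed by fibroblasts. In wild-type cortex it stood at 12.0, 16.6, 18.9, 13.1 and 18.96 CPM at E14 and at 66.9, 44.6, 67.3, 68.4 and 36.8 CPM at E18. At P7 it was 100.01, 108, 97.9, 91.3 and 102 CPM. The 3 ages did not overlap, and every P7 library was above every E18 library. By P35 wild-type levels were 50.2 to 55.4 CPM and by P70 41.3 to 47.1 CPM. Pdgfra rose by 1.83 ± 0.25 log2 units from E14 to E18 (SE, adjusted p = 1.49e-08) and by 0.81 ± 0.23 from E18 to P7 (adjusted p = 0.00222), and changed by -0.93 ± 0.23 from P7 to P35 (adjusted p = 0.000559). Ordered by level, the ages ran P7, E18, P35, P70 and E14. The differences between P7 and E18 and between P70 and E14 were called, and those between E18 and P35 and between P35 and P70 were not. The last was -0.25 ± 0.24 (adjusted p = 0.772, and 0.563 to 0.906 over the alternatives). Even so, every P70 library lay below every P35 library in wild type and also in Setd1a+/- cortex (41.0 to 47.0 CPM against 50.1 to 54.3 CPM). The standard deviation of log2 CPM within wild-type groups was 0.059 at P35, 0.071 at P70 and 0.090 at P7. It was 0.30 at E14 and 0.42 at E18, and in Setd1a+/- cortex at E14 it was 1.15. The spread of all groups enters the test of this step. In Setd1a+/- cortex the values were 6.95, 62.2, 17.3, 28.9 and 20.3 CPM at E14, 40.9 to 58.2 CPM at E18 and 97.9 to 104 CPM at P7. The E14 to E18 change there was 0.87 ± 0.24, and 1.43 ± 0.19 without Setd1a+/- replicate 2 at E14, the library at 62.2 CPM.

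Cspg4 encodes the NG2 proteoglycan of precursors, which pericytes also carry. In wild type it was 10.1 to 17.2 CPM at E14, 19.8 to 27.7 CPM at E18, 34.6 to 38.9 CPM at P7, and later 25.0 to 29.6 CPM at P35 and 21.1 to 25.0 CPM at P70. Like Pdgfra it was highest at P7, where no library overlapped with any other age, but its range over development was narrower. It rose by 0.95 ± 0.15 log2 units from E14 to E18 (SE, adjusted p = 5.75e-07) and by 0.62 ± 0.15 from E18 to P7, and fell by 0.46 from P7 to P35 (SE 0.15, adjusted p = 0.0054). In the order P7, P35, E18, P70 and E14, the differences between P7 and P35 and between P70 and E14 were called, and those among P35, E18 and P70 were not.

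Markers of vessels and meninges were followed beside these receptors, because pericytes and fibroblasts share them. In wild-type cortex 8 of the 9 pericyte genes rose from E14 to E18 (median 1.079), 3 fell from E18 to P7 (median -0.34) and 2 fell from P7 to P35 (median -0.31). Among Setd1a+/- libraries 1 rose and 1 fell from E14 to E18 (median -0.07), or 5 rose and 0 fell without replicate 2 at E14 (median 0.41), and 3 rose from E18 to P7 (median -0.05). Of the 6 fibroblast genes in wild-type cortex, 4 rose from E14 to E18 (median 1.92), none was called from E18 to P7 by edgeR (0 with an unadjusted p under 0.05) and 3 fell from P7 to P35 (median -1.33). In the other genotype 2 of them fell from E14 to E18 (median -0.30), and without replicate 2 at E14 edgeR called 0, with 1 at an unadjusted p under 0.05 (median 0.52). The interaction of age and genotype was called by edgeR for 0 genes of both lists, with 6 pericyte genes and 1 fibroblast gene at an unadjusted p under 0.05. At E18 the pericyte sum was 252, 177, 345, 316 and 161 CPM in wild type and 200.5, 140.0, 193.5, 204.25 and 174 CPM in Setd1a+/-, with Rgs5 the most abundant and no gene at 0. The fibroblast sum there was 786, 307, 656, 599 and 71.7 CPM in wild type and 423, 369, 474, 259 and 273 CPM in Setd1a+/-. Wild-type replicates 1, 3 and 4 had the highest sums on both lists, and also the highest Pdgfra, at 66.9 to 68.4 CPM. The part of these cells in the Pdgfra and Cspg4 levels was not tested.

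Olig1 and Olig2 are neighbouring basic helix-loop-helix genes on chromosome 16, and Olig2 is also active in ventral progenitors before any precursor forms. They took different courses. Olig1 was 18.8, 19.7, 11.8, 11.3 and 8.37 CPM in wild-type cortex at E14, 49.2, 54.7, 70.7, 65.6 and 61.3 CPM at E18, and 155, 147, 161, 155 and 168 CPM at P7. These 3 ages did not overlap, and the later levels were 130.9 to 155 CPM at P35 and 119 to 130.1 CPM at P70, the last below every P7 library. Olig1 rose by 2.11 ± 0.14 log2 units from E14 to E18 (SE, adjusted p = 1.17e-16) and by 1.38 ± 0.13 from E18 to P7. The steps from P7 to P35 (adjusted p = 0.223, and 0.0493 to 0.341 over the alternatives, the lowest with total counts only) and from P35 to P70 were not called, but the change from P7 to P70 was, at -0.35 ± 0.13 in wild type (adjusted p = 0.0152, and 0.00105 to 0.0368 over the alternatives). That change was -0.24 ± 0.13 in Setd1a+/- cortex (adjusted p = 0.0943, and 0.0185 to 0.161 over the alternatives), and the interaction of age and genotype had an adjusted p of 0.979.

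Olig2 was 43.4, 23.9, 27.3, 34.0 and 29.6 CPM at E14 in wild-type cortex and 25.3, 32.6, 32.0, 30.0 and 32.3 CPM at E18. The E18 values lay inside the E14 range, and the change was -0.06 ± 0.12 log2 units (SE, adjusted p = 0.699). At P7 the values were 44.3, 53.8, 46.1, 45.1 and 47.7 CPM, above every E14 and E18 library. It rose by 0.64 ± 0.12 from E18 to P7 and fell by 0.38 from P7 to P35 (SE 0.12, adjusted p = 0.0042), and in the order P7, P35, E14, E18 and P70 the difference between P7 and P35 was called and the other neighbouring differences were not. That between P35 and E14 had an adjusted p of 0.116 (0.00674 to 0.417 over the alternatives), and it was called by DESeq2, with the filter of 10 CPM, and without wild-type replicate 1 at E14 (0.34 ± 0.12, adjusted p = 0.00674). Over the E14 to E18 step, the 9 genes of ventral telencephalic progenitors all fell in wild type, with a median of -1.17. From E18 to P7, 8 of them fell and 1 rose (median -1.79), and from P7 to P35 5 fell and 1 rose (median -0.91). These last counts were 8 and 0 (median -1.57) and 6 and 0 (median -0.75) without wild-type replicate 2 at P7.

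Sox10, a high-mobility-group factor of oligodendrocytes and of neural crest glia, spread widely at E18. Its levels were 1.18 to 3.39 CPM over both genotypes at E14. At E18 they were 29.2, 26.3, 10.1, 17.1 and 7.27 CPM in wild type and 22.9, 9.49, 10.05, 21.8 and 25.1 CPM in Setd1a+/-. At P7 they were 28.1, 45.3, 26.1, 28.4 and 33.2 CPM in wild type and 26.1, 26.6, 29.0, 25.8 and 26.3 CPM in Setd1a+/-. The E18 libraries ran from values near the E14 range to values within the P7 range, with low and high libraries in both genotypes. Sox10 rose by 2.79 ± 0.28 log2 units from E14 to E18 in wild type (SE, adjusted p = 1.92e-11), by 0.84 ± 0.25 from E18 to P7 (adjusted p = 0.00253; 0.69, adjusted p = 0.0146, without wild-type replicate 2 at P7), and by 0.63 ± 0.24 from P7 to P35 (adjusted p = 0.0195, and 0.00208 to 0.0531 over the alternatives). At P35 and P70 it stood at 44.5 to 54.2 and 37.9 to 53.2 CPM over both genotypes. In wild type the order was P35, P70, P7, E18 and E14, in which the differences between P35 and P70 and between P70 and P7 were not called. The change from P7 to P70 was 0.49 ± 0.24 (adjusted p = 0.0678), and 0.64 ± 0.25 without wild-type replicate 2 at P7 (adjusted p = 0.0210, and 0.0129 to 0.172 over the alternatives). It was also called without wild-type replicate 5 at E18 (0.49, adjusted p = 0.0405). In Setd1a+/- cortex Sox10 rose by 0.93 ± 0.24 from P7 to P35 (adjusted p = 0.00082). Its change from P7 to P70 there was also called, at 0.79 ± 0.24 (adjusted p = 0.0037, and 0.00038 to 0.0104 over the alternatives). The Setd1a+/- rise from E18 to P7 was 0.58 ± 0.25 (adjusted p = 0.0345, and 0.00682 to 0.138 over the alternatives). It was not called without Setd1a+/- replicate 2 or 3 at E18 (0.42 and 0.43, adjusted p = 0.138 and 0.130). Nor was it called without replicate 2 or 3 at P7 (0.58 and 0.54, adjusted p = 0.0502 and 0.0643) or with total counts only (0.53, adjusted p = 0.0565).

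The E18 spread of Sox10 went with genes of the olfactory bulb and of its ensheathing glia, 2 lists chosen after the values were seen. The 5 genes of olfactory ensheathing and neural crest glia, with Frzb the most abundant, summed to 57.9, 48.5, 10.7, 26.3 and 3.495 CPM in wild type and to 43.8, 2.75, 6.77, 36.5 and 40.2 CPM in Setd1a+/- at E18. The 5 genes of olfactory bulb neurons summed to 249, 233, 47.1, 127 and 29.2 CPM in wild type and to 198, 33.1, 42.04, 145 and 181 CPM in Setd1a+/-. Wild-type replicates 3 and 5 and Setd1a+/- replicates 2 and 3 had the lowest sums on both lists and the lowest Sox10, at 7.27 to 10.1 CPM, which is still above the highest E14 value of 3.39 CPM. No ensheathing gene was at 0 at E18 except 2 of 5 in Setd1a+/- replicate 2. Of the ensheathing genes, Erbb3 is also on the list of ligands and receptors, and the 5 together summed to 45.1 to 59.3 CPM at P35 and P70. At P7 the bulb sum ran from 45.1 to 271 CPM and Sox10 from 25.8 to 33.2 CPM in the 9 libraries other than wild-type replicate 2, which had a bulb sum of 24.9 CPM and a Sox10 level of 45.3 CPM. The part of olfactory tissue in the E18 levels was not tested.

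**Figure D2:**
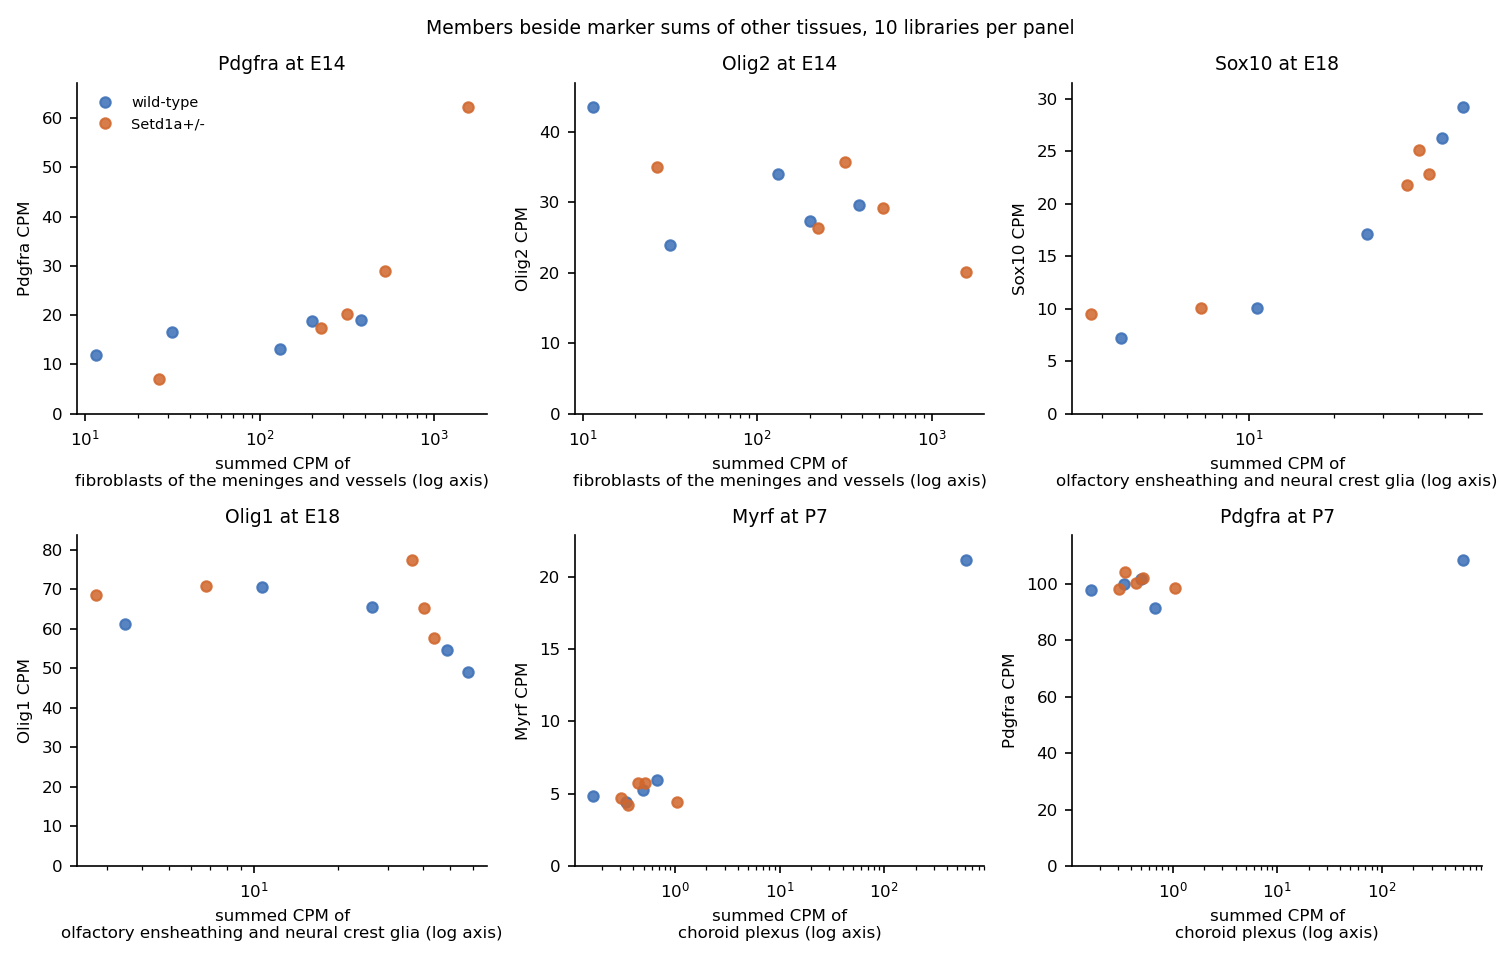
CPM of a member in each library (vertical axis) against the summed CPM of a marker list (horizontal axis, log scale), for Pdgfra and Olig2 at E14 against fibroblast genes, Sox10 and Olig1 at E18 against ensheathing glia genes, and Myrf and Pdgfra at P7 against choroid plexus genes. Pdgfra at E14 and Myrf at P7 each have 1 library far to the upper right, Setd1a+/- replicate 2 and wild-type replicate 2 respectively, whereas Sox10 at E18 climbs across the whole range of the list.

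Nkx2-2, a homeodomain factor that acts as precursors begin to differentiate, stood at 0.189 to 0.976 CPM at E14 and 1.65 to 2.85 CPM at E18 over both genotypes. At P7 it was 7.86, 14.8, 8.10, 9.54 and 7.13 CPM in wild type and 7.06, 8.43, 7.63, 7.31 and 7.09 CPM in Setd1a+/-. Wild-type replicate 2 was the highest, and the other 9 libraries lay at 7.06 to 9.54 CPM. The gene rose by 2.12 ± 0.26 log2 units from E14 to E18 in wild type (SE, adjusted p = 2.82e-09) and by 2.01 ± 0.23 from E18 to P7. Its levels were 5.48 to 10.1 CPM at P35 and P70 over both genotypes. In wild type the steps from P7 to P35 and from P35 to P70 were not called, whereas the change from P7 to P70 was, at -0.58 ± 0.22 (adjusted p = 0.0150). It was -0.37 ± 0.21 and not called without wild-type replicate 2 at P7 (adjusted p = 0.118, and 0.00189 to 0.118 over the alternatives). The Setd1a+/- value was -0.17 ± 0.22 (adjusted p = 0.485), and the interaction of age and genotype had an adjusted p of 0.999.

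Gpr17 encodes a G protein-coupled receptor of committed precursors, the stage between division and differentiation. It was 3.41, 5.86, 3.63, 2.27 and 0.804 CPM in wild-type cortex at E14 and 11.2 to 22.6 CPM over both genotypes at E18. At P7 it was 70.5, 127, 82.0, 88.3 and 84.4 CPM in wild type and 78.8, 80.2, 75.7, 71.5 and 67.0 CPM in Setd1a+/-, with wild-type replicate 2 the highest. It rose by 2.25 ± 0.24 log2 units from E14 to E18 (SE, adjusted p = 7.12e-11) and by 2.59 ± 0.22 from E18 to P7 in wild type. The level was then 67.4 to 83.4 CPM at P35 and 42.2 to 69.0 CPM at P70 over both genotypes. Neither later step was called, but in wild type the change from P7 to P70 was, at -0.70 ± 0.20 (adjusted p = 0.00209), or -0.55 ± 0.20 without replicate 2 at P7 (adjusted p = 0.0146, and 2.05e-05 to 0.0146 over the alternatives). In Setd1a+/- cortex it was -0.25 ± 0.20 (adjusted p = 0.278), and the interaction of age and genotype had an adjusted p of 0.966.

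Enpp6, an ecto-phosphodiesterase made by newly differentiating oligodendrocytes, was close to absent before birth. At E14 it had 1, 1, 0, 0 and 2 counts in the wild-type libraries and 0, 2, 0, 1 and 0 in Setd1a+/-, and at E18 3, 2, 6, 6 and 1 and 1, 9, 3, 2 and 2 counts. A count of 0 allows up to 3 counts, which in those libraries is 0.0713 to 0.0831 CPM of the total, by counting error only. At P7 it was 2.72, 18.8, 3.68, 4.96 and 3.45 CPM in wild type and 3.60, 4.12, 2.87, 3.61 and 2.64 CPM in Setd1a+/-. All P7 libraries were above all embryonic ones, and wild-type replicate 2 was alone above 5 CPM. The difference from E18 was called in both genotypes, and no fold is given for it because of the low embryonic counts. At P35 the wild-type libraries had 11.6, 13.3, 12.1, 11.9 and 14.9 CPM and the Setd1a+/- libraries 11.8, 16.04, 15.03, 15.3 and 12.4 CPM. Those at P70 had 8.24, 8.51, 5.61, 6.57 and 7.77 CPM and 7.06, 8.05, 9.49, 8.09 and 8.78 CPM, below every P35 library. The change from P7 to P35 was 0.92 ± 0.29 log2 units in wild type (SE, adjusted p = 0.00536) and 1.79 ± 0.20 without replicate 2 at P7. That from P35 to P70 was -0.80 ± 0.29 in wild type (adjusted p = 0.223) and -0.77 ± 0.29 in Setd1a+/- (adjusted p = 0.155). Without wild-type replicate 2 at P7, which enters the shared estimate of the spread, both passed, at -0.80 ± 0.18 (adjusted p = 0.0135) and -0.77 ± 0.18 (adjusted p = 0.00916). Over all alternatives the adjusted p ran from 0.00646 to 0.495 in wild type and from 0.00476 to 0.307 in Setd1a+/-.

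Bcas1 marks premyelinating cells and stays on in myelin. Its levels were 0.405 to 1.87 CPM at E14 and 1.70 to 3.71 CPM at E18 over both genotypes. At P7 they were 23.5, 68.5, 24.3, 30.2 and 23.5 CPM in wild type and 23.1, 26.2, 23.4, 22.9 and 20.5 CPM in Setd1a+/-. Wild-type replicate 2 was again alone, and every other P7 library lay at 20.5 to 30.2 CPM. The step from E14 to E18 was 0.82 ± 0.28 log2 units in wild type (SE, adjusted p = 0.0102, and 6.4e-05 to 0.156 over the alternatives, the highest by limma-voom) and 1.34 ± 0.28 in Setd1a+/- cortex (adjusted p = 5.87e-05). The wild-type step from E18 to P7 was larger, at 3.94 ± 0.23, or 3.51 without wild-type replicate 2 at P7. From P7 to P35 Bcas1 rose by 1.62 ± 0.19, or 2.04 ± 0.14 without it, in wild type and by 2.18 ± 0.19 in Setd1a+/- cortex. Levels over both genotypes were 86.1 to 116 CPM at P35 and 97.3 to 123 CPM at P70. In the order of ages the difference between P70 and P35 was not called, and those of every other neighbouring pair were.

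Myrf, the regulator that switches on the myelin genes, was 1.29, 1.33, 1.46, 1.49 and 2.62 CPM at E14 and 1.86, 1.49, 1.404, 1.49 and 1.20 CPM at E18 in wild type, ages that overlapped and differed by -0.15 ± 0.29 log2 units (SE, adjusted p = 0.658). At P7 it was 4.44, 21.2, 4.87, 5.96 and 5.25 CPM in wild type and 4.22, 5.72, 4.71, 5.75 and 4.42 CPM in Setd1a+/-. At P35 it was 47.4, 51.5, 49.3, 47.7 and 42.97 CPM in wild type and 44.3, 52.0, 46.0, 54.8 and 49.6 CPM in Setd1a+/-. Every P35 library was above every P7 library, including wild-type replicate 2, which stood between the ages. Myrf rose by 2.49 ± 0.26 from E18 to P7 in wild type (1.78 without that library, and 1.403 in Setd1a+/-) and by 2.51 ± 0.23 from P7 to P35 (adjusted p = 2.90e-13; 3.22 ± 0.13 without it, and 3.31 in Setd1a+/-). At P70 it was 40.1 to 56.9 CPM over both genotypes, and the step from P35 was not called.

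The other lists of lineage genes place these courses. Of 14 other precursor genes, 9 rose and 4 fell from E14 to E18 in wild-type cortex (median 0.40), 6 rose and 4 fell from E18 to P7 (median 0.27), and 4 rose and 8 fell from P7 to P35 (median -0.58). Vcan, a matrix proteoglycan, went from 306 CPM at E14 to 20.7 CPM at P70 and was the only one of these called from P35 to P70 (-0.29 log2 units, adjusted p = 0.0349). Of 16 genes of committed precursors and newly formed oligodendrocytes, 9 rose and 5 fell over the first step (median 0.44), 11 rose and 2 fell over the next (median 0.78), 4 rose and 4 fell from P7 to P35 (median 0.11), and 1 fell from P35 to P70 (Sirt2, -0.30, adjusted p = 0.0418). Without wild-type replicate 2 at P7, 8 rose and 3 fell from E18 to P7 (median 0.37), 7 rose and 3 fell from P7 to P35 (median 0.36), and 3 fell from P35 to P70 (Cemip2, Rras2 and Sirt2). In Setd1a+/- cortex 8 rose and 2 fell from E18 to P7 (median 0.53), and 9 rose and 3 fell from P7 to P35 (median 0.42). Of the 14 mature myelin genes, 6 rose from E14 to E18 (median 0.34), 11 rose and 2 fell from E18 to P7 (median 1.53), and all 14 rose from P7 to P35 (median 3.35). With wild-type replicate 2 at P7 left out, 9 rose and 2 fell from E14 to E18 (median 0.35), 7 rose and 2 fell from E18 to P7 (median 0.69) and 14 rose from P7 to P35 (median 4.35). The Setd1a+/- libraries had 7 risen and 2 fallen from E18 to P7 (median 0.999), and 14 risen from P7 to P35 (median 4.51). Mbp, which encodes a compact myelin protein, was at 77.7, 715.09, 77.2, 102.8 and 80.2 CPM in the wild-type libraries at P7, and its wild-type mean at P35 was 2223 CPM. From P35 to P70, 2 myelin genes fell, Mog (-0.65, adjusted p = 0.0472) and Tspan2 (-0.64, adjusted p = 0.000579), and 7 fell without wild-type replicate 2 at P7.

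Signals and regulators of the lineage were followed over the same steps. Of 22 ligands and receptors that act on precursors, 6 rose and 11 fell from E14 to E18 in wild type (median -0.26), 5 rose and 11 fell from E18 to P7 (median -0.39), and 6 rose and 7 fell from P7 to P35 (median 0.05). Lingo1, a membrane protein that restrains differentiation, rose at each of these steps (1.33, 0.81 and 0.65 log2 units), and the adhesion receptor Adgrg1 fell at each (-0.996, -0.29 and -0.95). Of 21 transcriptional regulators and inhibitors of the lineage, 3 rose and 17 fell over the first step (median -0.68), 2 rose and 14 fell over the next (median -0.48), and 4 rose and 11 fell from P7 to P35 (median -0.49). Smarca4, the ATPase of a chromatin remodelling complex, went from 652 CPM at E14 to 162.8 CPM at P35. Chd7, another remodeller, went from 135 to 18.8 CPM. On both lists edgeR called no gene from P35 to P70 in wild type, with 1 and 3 genes at an unadjusted p under 0.05. Without wild-type replicate 2 at P7, 1 regulator was called at that step (Hdac1), and the medians from E18 to P7 and from P7 to P35 were -0.49 and 0.11 for the ligands and receptors and -0.57 and -0.22 for the regulators.

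Markers of the other cells of the cortex were read over the same wild-type steps, E14 to E18, E18 to P7 and P7 to P35. Of 6 radial glia genes, 1 rose and 5 fell, then 3 fell, then 5 fell (medians -1.20, -0.51 and -1.15). Of 6 neuronal genes, 4 rose, then 4 rose and 2 fell, then 5 rose and 1 fell (0.63, 1.33 and 0.80). Of 6 astrocyte genes, 6 rose, then 5 rose, then 2 rose and 2 fell (1.26, 1.62 and 0.08). With wild-type replicate 2 at P7 left out, 4 and then 5 radial glia genes fell over the last 2 of these steps (-1.02 and -0.65), and 2 astrocyte genes rose and 1 fell from P7 to P35 (0.31). Of 5 microglia genes, 2 rose, then 4, then 5 (0.23, 0.66 and 1.41). Of 4 endothelial genes, 2 rose, then 1 fell, then 2 rose and 1 fell (0.80, -0.32 and 0.55). Of 4 striatal genes, 2 rose, then 2 fell, then 4 rose (0.88, -0.77 and 2.44).

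The remaining lists mark tissue or blood that a cortical dissection may carry along. Of 3 choroid plexus genes, 1 fell, then none was called, then 1 fell (-1.32, -0.29 and -1.87). Without wild-type replicate 2 at P7, 3 of them fell from E18 to P7 (-3.31), and edgeR called 0 from P7 to P35, with 0 at an unadjusted p under 0.05 (1.28). Of 3 erythroid genes, 2 fell and then none was called (-0.97, -0.60 and 0.65). Of the 5 genes of olfactory bulb neurons, 3 rose, then 1 rose, then 2 fell (2.14, -0.19 and -1.34), and of the 5 of ensheathing glia, 5 rose, then 1 fell, then 2 rose (2.81, -0.77 and 0.59). The median of the bulb list was 0.10 from E18 to P7 without wild-type replicate 2 at P7, and 3 of its genes then fell from P7 to P35 (-1.58). None of the 3 hindbrain genes passed the filter on low counts.

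The effect of genotype on the members was small next to that of age. With age as a covariate, edgeR, DESeq2 and limma-voom each called 0 of 10 members, and 0 had an unadjusted p under 0.05. Of all tested genes edgeR called 4.43%, 111 higher and 612 lower in Setd1a+/-. For 10 members a count of 0 is close to that share, so it does not set them apart from other genes. The members' median log2 fold change was -0.06, beside 0.00 for all genes. Among the receptors, the fold change was 0.10 ± 0.11 log2 units (SE) for Pdgfra and 0.07 ± 0.07 for Cspg4. Among the transcription factors it was 0.01 ± 0.06 for Olig1, -0.03 ± 0.05 for Olig2, -0.08 ± 0.11 for Sox10 and -0.10 ± 0.10 for Nkx2-2. Among the later genes it was -0.07 ± 0.10 for Gpr17, -0.20 ± 0.18 for Enpp6, -0.11 ± 0.10 for Bcas1 and -0.05 ± 0.12 for Myrf. Adjusted p ran from 0.697 for Bcas1 to 0.976 for Olig1, and all estimates but those of Cspg4, Enpp6 and Bcas1 were smaller than their standard error. Leaving out 1 library turned the sign of some: Pdgfra ran from -0.0059 to 0.1354 and Olig1 from -0.0084 to 0.0409. Enpp6 ran from -0.2373 to 0.0655 and Myrf from -0.0698 to 0.0978, whereas Bcas1 stayed negative, from -0.1358 to -0.0052. On the other lists edgeR called 0 genes in this comparison, with 1 gene at an unadjusted p under 0.05 on each of the lists of other precursor genes, committed cells, ligands and receptors, and olfactory bulb neurons, 2 on that of choroid plexus and 0 on the rest.

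The interaction of age and genotype was called by edgeR for 0 of 10 members and for 0% of all genes. By an unadjusted p under 0.05, 1 member (Myrf) and 1098 genes passed, and DESeq2 called 0 members and 21 genes and limma-voom 0 of both. For Myrf the adjusted p was 0.649, and its unadjusted p was 0.333 without wild-type replicate 2 at P7.

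At E14 edgeR called 0 members for genotype, with 0.129% of all genes called, and DESeq2 and limma-voom each called 0 members. By an unadjusted p under 0.05, 1 member and 1895 genes in all passed. The members' median was -0.22 log2 units beside -0.03 for all genes. The 1 member was Pdgfra, with 12.0, 16.6, 18.9, 13.1 and 18.96 CPM in wild type and 6.95, 62.2, 17.3, 28.9 and 20.3 CPM in Setd1a+/-. The Setd1a+/- libraries held both the lowest and the highest value of the age, and the genotypes overlapped. The difference was 0.77 ± 0.24 log2 units (SE, adjusted p = 0.140), and 0.21 ± 0.19 without Setd1a+/- replicate 2. Cspg4 was 12.5, 17.2, 11.7, 10.3 and 10.1 CPM in wild type and 11.1, 27.2, 12.4, 13.4 and 9.63 CPM in Setd1a+/-, with replicate 2 again the highest. Its difference was 0.26 ± 0.15, and -0.08 ± 0.11 without that replicate.

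The same library led the markers of fibroblasts and vessels at E14. The 6 fibroblast genes, with Col3a1 the most abundant and none at 0, summed to 11.5, 31.6, 200.3, 130.8 and 382 CPM in wild type and to 26.5, 1565, 224, 523 and 316 CPM in Setd1a+/-. The 9 pericyte genes summed to 114, 124, 136, 115 and 139 CPM in wild type and to 109, 473, 133.01, 186 and 133.4 CPM in Setd1a+/-. The 4 endothelial genes summed to 146, 139, 157.8, 139.5 and 188 CPM and to 153, 549, 135, 233 and 149 CPM. Setd1a+/- replicate 2 was highest and replicate 4 next on all 3 lists, and these were also the 2 libraries with the highest Pdgfra. In the comparison of genotypes at E14, edgeR called 0 genes of these lists, with 6 of 6, 7 of 9 and 4 of 4 at an unadjusted p under 0.05 and medians of 1.77, 0.66 and 0.67. Of all 16330 genes, 1895 had an unadjusted p under 0.05 in that comparison. Without Setd1a+/- replicate 2 the medians were 0.85, 0.15 and 0.13, with 0 genes called and 0 at an unadjusted p under 0.05. Their part in the Pdgfra difference was not tested.

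Leaving out other libraries also moved the count of members called at E14. Without wild-type replicate 5 at E14, which held Xist counts, 747 genes in all were called at E14 in place of 21, with Pdgfra at 0.84 ± 0.26 (adjusted p = 0.0527) and Gpr17 at -0.76 ± 0.24 (adjusted p = 0.0538). Without both Xist libraries and wild-type replicate 2 at P7, 3 members were called: Pdgfra at 0.84 ± 0.26 (adjusted p = 0.0446), Myrf at 0.43 ± 0.13 (adjusted p = 0.0377) and Gpr17 at -0.77 ± 0.23 (adjusted p = 0.0367), with 7.11% of all genes called in that fit. Myrf with all libraries was 0.18 ± 0.29 (adjusted p = 0.873), and its highest E14 library, at 2.62 CPM, is the Xist library. Gpr17 with all libraries was -0.50 ± 0.28 (adjusted p = 0.509). Its Setd1a+/- values at E14, 2.44, 2.40, 3.48, 1.64 and 1.28 CPM, lay within the wild-type range, whose lowest library, 0.804 CPM, is the Xist library. With all other libraries kept, Pdgfra was called without Setd1a+/- replicate 1 (1.01, adjusted p = 0.0105) or replicate 3 (0.89, adjusted p = 0.0416) at E14, with 2.61% and 2.38% of all genes called. Over all alternatives its adjusted p ran from 0.0105 to 1, that of Gpr17 from 0.0367 to 1 and that of Myrf from 0.0377 to 1.

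At E18 edgeR called 0 members, with 0 at an unadjusted p under 0.05, 0 called by DESeq2 and by limma-voom, and 0.110% of all genes called. The fold changes ran from -0.20 ± 0.23 log2 units for Pdgfra to 0.33 ± 0.29 for Myrf (SE), with a median of 0.03 beside 0.02 for all genes. Among the E18 libraries the 3 choroid plexus genes summed to 227 and 183 CPM in wild-type replicates 3 and 4, mostly Ttr, and to 0.326 to 6.99 CPM in the other 8. For genotype at E18 edgeR called 0 genes of the pericyte, endothelial and fibroblast lists, whose medians were -0.43, -0.46 and -0.49. At an unadjusted p under 0.05 were 3 of 9, 2 of 4 and 0 of 6 of their genes. The part of these cells and of choroid plexus in the fold changes was not tested.

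At P7 edgeR again called 0 members, with 0.735% of all genes called, and DESeq2 and limma-voom each called 0 members. By an unadjusted p under 0.05, 3 members and 1447 genes in all passed. The members' median was -0.27 beside 0.00 for all genes. These 3 were Enpp6 at -0.999 ± 0.30 log2 units (SE, adjusted p = 0.131), Myrf at -0.76 ± 0.23 (adjusted p = 0.143) and Bcas1 at -0.55 ± 0.19 (adjusted p = 0.213). In each, wild-type replicate 2 was the highest of the 10 libraries and the other 4 wild-type libraries overlapped with Setd1a+/-. Without that library the differences were -0.14 ± 0.20 for Enpp6, -0.05 ± 0.12 for Myrf and -0.13 ± 0.13 for Bcas1, and 7 genes in all were called in place of 120. With it kept and wild-type replicate 1, 3 or 5 left out, Enpp6 was called at -1.20, -1.15 and -1.16 (adjusted p = 0.0308, 0.0449 and 0.0418) and Myrf at -0.91, -0.90 and -0.88 (adjusted p = 0.0353, 0.0381 and 0.0477), with 0.871%, 1.29% and 1.21% of all genes called. Over all alternatives the adjusted p ran from 0.0308 to 1 for Enpp6, from 0.0353 to 1 for Myrf and from 0.0803 to 1 for Bcas1. The mature myelin list showed the same library: 3 of its 14 genes were called lower in Setd1a+/- at P7 (Mbp -1.47, Mag -2.14 and Mobp -3.63), with a list median of -0.92. Of the committed list Tcf7l2 was called (-1.78), and of the choroid plexus list Ttr (-9.28). Without that library edgeR called 0 genes of these 3 lists at P7, with 2, 0 and 0 at an unadjusted p under 0.05, and the median of the myelin list was -0.09.

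**Figure D3:**
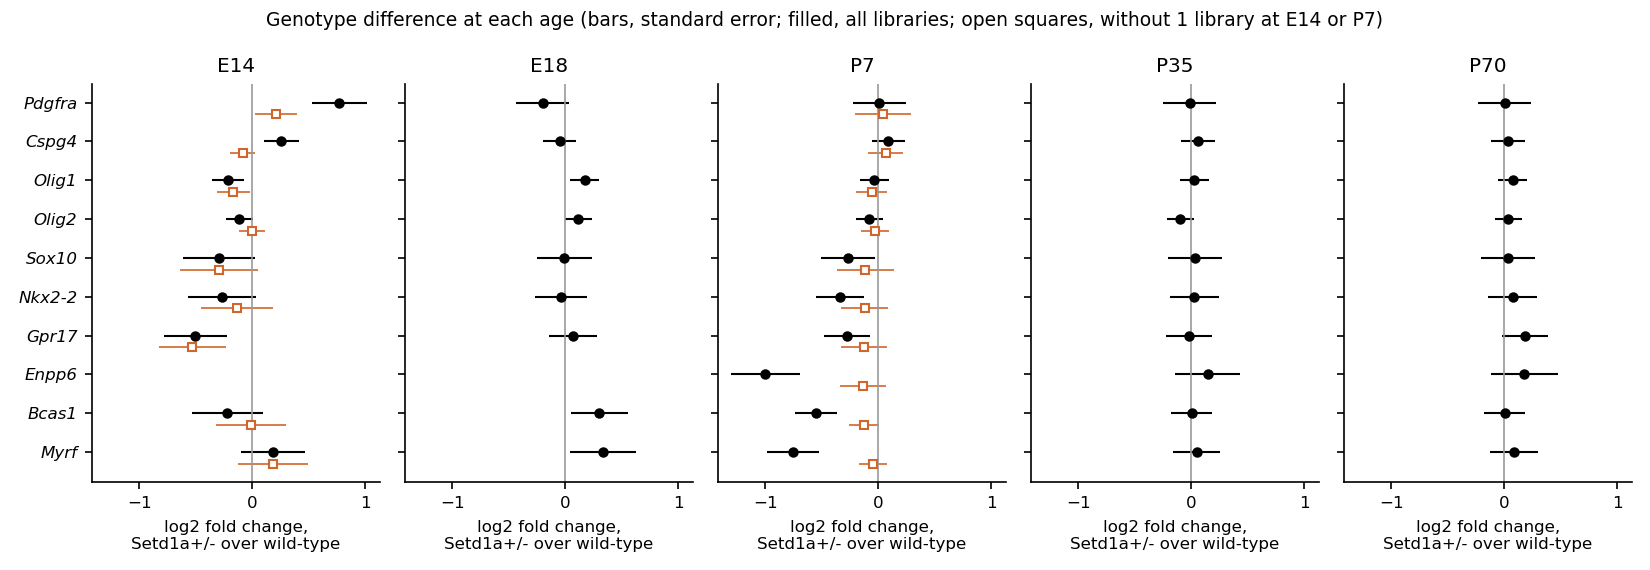
Log2 fold change of Setd1a+/- over wild type (horizontal axis, bars 1 SE) for the 10 members (vertical axis), in 5 panels, 1 per age, n = 5 libraries per genotype. Enpp6 is not drawn at E14 and E18. Open squares are for the fit without Setd1a+/- replicate 2 at E14 or without wild-type replicate 2 at P7. The open squares lie near 0 for Pdgfra at E14 and for Enpp6, Myrf and Bcas1 at P7, where the filled points do not.

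At P35 edgeR called 0 members and 0% of all genes, with 0 members and 550 genes at an unadjusted p under 0.05, 0 members called by DESeq2 and by limma-voom, and a member median of 0.03 beside 0.00 for all genes. At P70 it called 0 members, with 0 at an unadjusted p under 0.05, 0 called by DESeq2 and by limma-voom, 0.233% of all genes called and a median of 0.05 beside 0.00. Pdgfra at P35, for example, was 50.6, 50.1, 51.8, 54.3 and 52.6 CPM in Setd1a+/-, inside the wild-type range of 50.2 to 55.4 CPM but for the library at 50.1 CPM.

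Libraries of the same age and genotype also differed from each other, and some members moved together in this. Over the deviations of log2 CPM from the group means (n = 50 libraries), 5 of 45 pairs of members were called at an adjusted p under 0.05 by a two-sided permutation test, all 5 positive. Pairs of other genes were not tested in this way, so the count does not set the members apart from other genes. Olig1 and Gpr17 had r = 0.71 (permutation p = 0.00046, adjusted p = 0.0104) and Spearman's rho = 0.45 (permutation p = 0.00864, adjusted p = 0.0583), and r was 0.49 without the 2 libraries farthest from the median of Olig1. Within the 5 ages, youngest to oldest, r was 0.84, 0.74, -0.56, 0.47 and -0.05, so the relation did not hold at P7 or P70. Nkx2-2 and Gpr17 had r = 0.71 (permutation p = 0.00043, adjusted p = 0.0104), rho = 0.43 (permutation p = 0.0112, adjusted p = 0.0599) and r = 0.57 without 2 libraries, with 0.83, 0.30, 0.88, 0.45 and -0.02 within ages. Nkx2-2 and Bcas1 had r = 0.61 (permutation p = 0.00089, adjusted p = 0.0134), rho = 0.63 (permutation p = 0.00011, adjusted p = 0.00495) and r = 0.65 without 2 libraries, positive at each age, from 0.24 at E18 to 0.98 at P7.

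The other called pairs were Olig1 with Nkx2-2 and Bcas1 with Myrf. Olig1 and Nkx2-2 had r = 0.67 (permutation p = 0.00313, adjusted p = 0.0352), rho = 0.37 (permutation p = 0.0431, adjusted p = 0.149) and r = 0.49 without 2 libraries, with 0.90, 0.12, -0.85, 0.28 and 0.55 within ages. The sign at P7 was the opposite of that elsewhere. Bcas1 and Myrf had r = 0.56 (permutation p = 0.00465, adjusted p = 0.0419), rho = 0.44 (permutation p = 0.00288, adjusted p = 0.0432) and r = 0.41 without 2 libraries, with 0.14, 0.28, 0.97, 0.58 and 0.48 within ages. By rank, 3 of the 45 pairs passed: Nkx2-2 with Bcas1, Bcas1 with Myrf, and Sox10 with Myrf (rho = 0.41, permutation p = 0.00275, adjusted p = 0.0432), which was not called by Pearson's r with all libraries (r = 0.22, permutation p = 0.138, adjusted p = 0.283, and 0.36 without 2 libraries, with -0.57, 0.82, 0.87, 0.61 and 0.66 within ages). Wild-type replicate 2 is among the P7 libraries in all of these. Without it and both Xist libraries, 3 pairs were called, Olig1 with Gpr17 (r = 0.61, adjusted p = 0.0191), Nkx2-2 with Bcas1 (0.69, adjusted p = 0.0191) and Sox10 with Myrf (0.54, adjusted p = 0.00585). Bcas1 with Myrf (r = 0.26, adjusted p = 0.235), Nkx2-2 with Gpr17 (0.59, adjusted p = 0.0782) and Olig1 with Nkx2-2 (0.65, adjusted p = 0.0782) were not among them. Pdgfra and Cspg4, the receptor pair, had r = 0.66 (adjusted p = 0.138), and 0.37 without 2 libraries. The most negative values were those of Olig2 with Pdgfra (-0.52) and Cspg4 (-0.53), neither of them called (adjusted p = 0.0777 for both), and they were -0.30 and -0.25 without 2 libraries at E14, of which Setd1a+/- replicate 2 was 1.

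**Figure D4:**
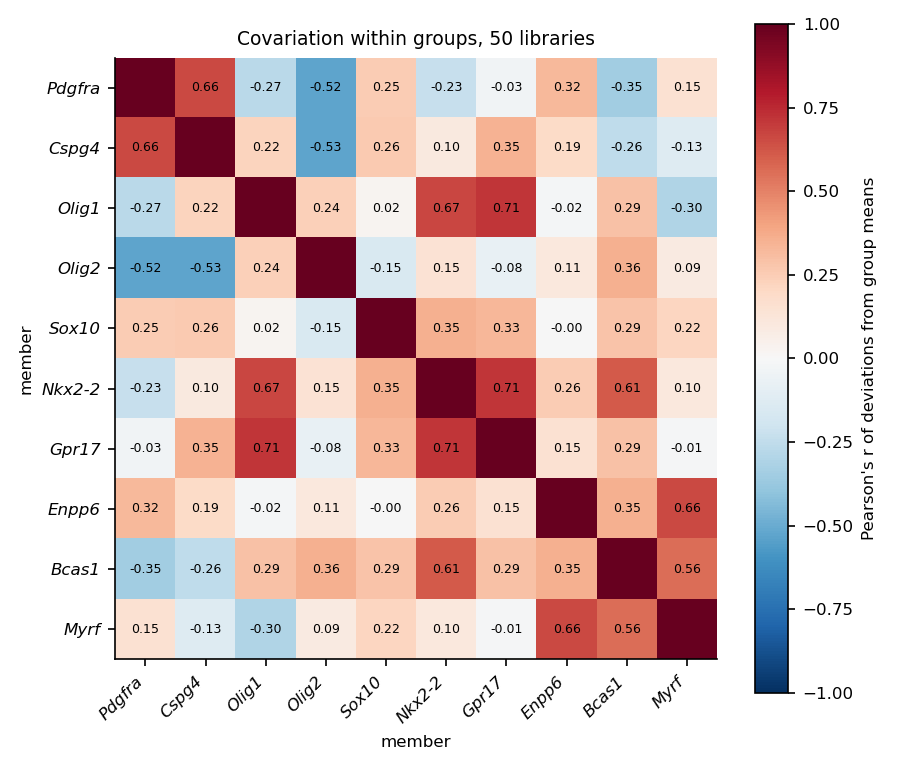
Pearson's r between each pair of the 10 members over deviations of log2 CPM from the group means in 50 libraries, on a colour scale from negative to positive. The called pairs lie among Olig1, Nkx2-2, Gpr17, Bcas1 and Myrf, and the values of Olig2 with Pdgfra and Cspg4, which were not called, are negative.

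Among all other tested genes, those most like each member were named by Pearson's r over the 10 group means of log2 CPM, as a description. For Pdgfra they were Sh2d4a (r = 0.991), Cyb561d2 (0.991) and Clca3a1 (0.990), and the member Cspg4 had 0.988 with it. For Olig2 they were Cercam (0.983), Spata22 (0.982) and Fhl1 (0.969). Nkx2-2 was most like Rap2a (0.998) and Pdgfa (0.997), the latter encoding the ligand of the Pdgfra receptor, and Gpr17 was also most like Rap2a (0.998) among genes outside the set. The members Nkx2-2 and Gpr17 had 0.999 with each other. The nearest gene was Pth2r for Cspg4 (0.994), C2cd4c for Olig1 (0.999), Grik4 for Sox10 (0.998), Chga for Enpp6 (0.999), Kcnj9 for Bcas1 (0.999) and Cops7a for Myrf (0.999).

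The counts were made without regard to strand, so reads in exons that overlap another gene cannot be told apart from its own. Of the exonic bases of the members, 12.6% are shared for Bcas1 (with Bcas1os1 and Bcas1os2), 9.67% for Nkx2-2 (with Nkx2-2os), 7.26% for Olig1 (with Gm15966), 6.50% for Pdgfra (with Gm42802, Gm42803 and Mir7025) and 3.62% for Gpr17 (with Lims2). Cspg4, Olig2, Sox10, Enpp6 and Myrf share none. In the GRCm38 annotation Pdgfra lies on the plus strand of chromosome 5 from 75152292 to 75198215, Enpp6 on the plus strand of chromosome 8 from 46986887 to 47096762, and Myrf on the minus strand of chromosome 19 from 10208272 to 10240748.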

How the data were processed

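RNA sequencing of 50 frontal cortex libraries was analysed from the deposited tables of raw fragment counts per gene. As the study's methods and the submitters' processing notes describe, the authors trimmed reads with Trimmomatic, checked them with FastQC, aligned them with STAR and counted them with featureCounts 1.4.6-p2 over exons of Ensembl release 102 (GRCm38), without regard to strand and with a read assigned to every gene it overlaps. Versions of the other tools are not given in the sources used here. Symbols and gene types came from GENCODE vM21, which holds 55141 of the 55487 genes, 21897 of them protein-coding.

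Groups and replicates came from the labels. Protein-coding genes were kept by edgeR's filterByExpr at a minimum count of 10, which left 16330. Fits used edgeR 4.0.16 (TMM scaling, quasi-likelihood F tests, Benjamini-Hochberg over all 16330 genes, called at an adjusted p under 0.05) in R 4.3.3. Genotype was tested with age as a covariate, as an interaction with age, and at each age in a fit of the 10 groups, which also gave the steps between ages. Log2 CPM used a prior count of 2. Correlations within groups used 100000 permutations of libraries within groups, with Benjamini-Hochberg over 45 pairs. Tables and figures used Python 3.11.15, numpy 2.4.6, pandas 2.3.3 and matplotlib 3.10.9. The model was tested on simulated data. No libraries of a group were duplicates: the lowest difference between 2 of them was 3.22 times the counting error.

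Alternatives were DESeq2 1.42.0, limma-voom (limma 3.58.1), DESeq2 size factors or total counts in edgeR, no filter or one of 10 CPM in 5 libraries, all annotated genes in place of protein-coding genes, a threshold of 0.01, a prior count of 0.5, a replicate block, leaving out each library in turn, leaving out both Xist libraries, and leaving out these with wild-type replicate 2 at P7. Leaving out wild-type replicate 2 at P7 together with Setd1a+/- replicate 2 at E14 was chosen after seeing the data.

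The members and lists were chosen with earlier results of these data known. Named genes were the 10 members, Setd1a, in each other list the 2 genes with the smallest genotype p, the 2 highest per kilobase and every called gene up to 8, the 3 genes most like each member, and genes sharing exons with a member. Genes outside this rule that are named (Vcan, Mog, Tspan2, Cemip2, Rras2, Hdac1, Erbb3, Frzb and the markers of choroid plexus and hindbrain) were chosen after their values were seen. The lists were other precursor genes, committed precursors and newly formed oligodendrocytes, mature myelin, ligands and receptors, transcriptional regulators and inhibitors, pericytes, fibroblasts, ventral telencephalic progenitors, radial glia, neurons, astrocytes, microglia, endothelium, choroid plexus, striatum, hindbrain, erythroid cells and, chosen after the values were seen, olfactory bulb neurons and olfactory ensheathing glia. Of non-coding genes, Xist was counted to describe the libraries, those sharing exons with members were named, and others entered only the alternative of all annotated genes. Synaptosomal data and reads were not analysed here. Values of 1 further gene are not reported here.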

Additional observations from a re-analysis of the deposited data

Results flagged for a closer look

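Each member was checked in each of the 10 groups for a library far from the other 4, on the log2 CPM scale. Of the 100 groups checked 8 held such a library, and chance flags about 1 in 20 groups. No cause was tested for any of them.

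Wild-type replicate 2 at P7 was far above its group for Bcas1, at 6.10 against 4.92 in the nearest library, and for Myrf, at 4.41 against 2.59. It is the library with the high sums of myelin, choroid plexus and hindbrain genes. Wild-type replicate 5 at E14, which held Xist counts, was far below its group for Sox10, at 0.31 against 1.39, and far above it for Myrf, at 1.42 against 0.63. In the Setd1a+/- groups Sox10 was high in replicate 3 at P7, at 4.86 against 4.74, and in replicate 3 at P70, at 5.74 against 5.53. Gpr17 was low in Setd1a+/- replicate 5 at P70, at 5.56 against 5.99, and Bcas1 was low in Setd1a+/- replicate 1 at P35, at 6.43 against 6.74.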

How the results depend on the processing

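The steps between ages up to P35 stayed within 1.5 times their counts under every alternative: leaving out 1 library at a time gave 7 to 8 members from E14 to E18 in both genotypes, 10 in wild type and 9 to 10 in Setd1a+/- from E18 to P7, and 6 to 7 and 7 from P7 to P35. The member gained from E14 to E18 was Enpp6, which had few counts at those ages. No alternative gave a member changed by genotype with age as a covariate or by the interaction. At E14, 3 members were called for genotype without both Xist libraries and wild-type replicate 2 at P7, and leaving out 1 library gave 0 to 1. At P7 leaving out 1 library gave 0 to 2. From P35 to P70, 1 member (Enpp6) was called in each genotype by limma-voom, without those 3 libraries, and without wild-type replicate 2 at P7 and Setd1a+/- replicate 2 at E14 together, and leaving out 1 library gave 0 to 1 in each. Within groups 3 correlated pairs in place of 5 were called without the 3 libraries, with Sox10 and Myrf gained (r = 0.5354), and 6 with DESeq2 size factors, with Enpp6 and Myrf gained (r = 0.6590, adjusted p = 0.0497, and 0.0497 to 0.507 over all settings). Among 66 fold changes of single members (genotype with age as a covariate, and with Enpp6 from E14 to E18 left out those at single ages or between neighbouring ages at an unadjusted p under 0.05 with all libraries), a call was lost 6 times under an alternative and 5 times without 1 library, and gained 7 and 10 times, with the direction kept. Calls outside these 66, such as those from P7 to P70, were not counted. The cause was not tested.

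Genotype fold changes with age as a covariate that were not called changed sign. By limma-voom Enpp6 was 0.0027 and Myrf 0.0343, and with the replicate block Myrf was 0.0125. Without both Xist libraries Olig1 was -0.0198. Without these and wild-type replicate 2 at P7, Olig1 was -0.0221, Enpp6 0.0659 and Myrf 0.1196. Without wild-type replicate 2 at P7 and Setd1a+/- replicate 2 at E14, Bcas1 was 0.0107, Enpp6 0.0628, Myrf 0.0936, Olig2 0.0040 and Pdgfra -0.0012. Leaving out 1 library gave -0.2373 to 0.0655 for Enpp6, -0.0698 to 0.0978 for Myrf, -0.0084 to 0.0409 for Olig1 and -0.0059 to 0.1354 for Pdgfra. Whether replicate numbers pair the genotypes was not tested. Over 25 pairs with a shared number, r of the deviations ran from -0.20 to 0.46 and was over 0.1 in 9. In 7 of the 25 the library with the shared number was the best match of its age. With the replicate block 0 members were called for genotype. The Xist libraries and low counts of Enpp6 and Nkx2-2 before birth limit what the embryonic comparisons can show.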
